A study of Panax ginseng with 12 samples.

Results

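Cytokinin signalling and turnover genes were followed in embryogenic calli of Panax ginseng held in the cold. Such a callus is unorganised tissue grown in culture whose cells can give rise to somatic embryos. The genes were the rows of the deposited expression table whose Swiss-Prot description named a cytokinin protein, a type-A or type-B response regulator (ARR or ORR), a histidine-containing phosphotransfer protein, or histidine kinase 2, 3 or 4. This rule took 47 of 44953 assembled genes, and it used no expression value. Calli at 5 °C (cold) for 2, 4 or 6 days were set against calli at 20 °C (control) of the same days. Each of the 6 groups had 2 libraries, which carry replicate numbers 1 and 3 (day 2), 1 and 2 (day 4) or 2 and 3 (day 6). No genotype, cultivar or other treatment is given in the labels, and nothing says that the replicates were separate cultures. P-values therefore measure only the spread between these samples, which may be technical.

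Cytokinins are adenine-derived hormones that promote cell division and shoot formation and are used with auxin to steer cultured plant tissue. In Arabidopsis, histidine kinases AHK2, AHK3 and AHK4 bind the hormone through their CHASE domain and start a phosphorelay. Phosphotransfer proteins (AHP) carry the phosphate to response regulators. Type-B regulators are transcription factors that switch on cytokinin targets. Type-A regulators are themselves such targets and dampen the signal. LOG enzymes release active cytokinin from its nucleotide, the cytochrome P450 proteins CYP735A1 and CYP735A2 hydroxylate isopentenyladenine nucleotides towards trans-zeatin, and cytokinin dehydrogenases (CKX) destroy the hormone.

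By their best Swiss-Prot hits, the 47 genes were 12 receptors, 7 phosphotransfer proteins, 13 type-B regulators, 7 type-A regulators, 5 LOG enzymes, 2 hydroxylases and 1 dehydrogenase (CKX7). The table's own KEGG annotation, which the rule did not use, named all 12 receptors a cytokinin receptor, all 7 type-A rows ARR-A and all 13 type-B rows ARR-B. The 47 rows shared 25 distinct hits, and 20 of them fell in 8 assembly clusters with another of the 47. Their lengths lay between 266 and 5459 bases (median 1092), and 8 were under 600 bases. Rows with the same symbol can therefore be gene copies or pieces of one transcript, and how reads were divided between them is unknown. Values are TPM, a transcript share scaled by length, so levels can be set side by side between genes. The mean over the 12 libraries was between 2.07 and 92.8 TPM (median 7.99), and all 47 passed the filter of at least 1 TPM in at least 2 libraries.

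Library totals were 873298 to 929555 TPM, and since this unit keeps no read numbers, sequencing depth is unknown. Along the first principal component the 6 cold libraries lay between -136 and -15.4 and the 6 control libraries between 52.1 and 111. Cold day 6 replicate 3 lay nearest to the controls, and the second component set cold day 2 replicate 3 apart. Control day 2 replicates 1 and 3 had the lowest correlation of any pair (r = 0.81 across genes, which are not independent replicates). This value cannot tell which library of the pair departs. Embryogenic callus markers (somatic embryogenesis receptor kinases, BABY BOOM and WUSCHEL-related homeobox genes, 11 rows) summed to 440 to 673 TPM in cold and 445 to 983 TPM in control, with none at 0 throughout. Of these rows 1 was called higher, 1 lower and 9 were not called. Without 1 WOX8 row (TRINITY_DN28053_c1_g1, chosen after its values were seen) the other 10 summed to 210 to 265 TPM in cold and 224 to 319 TPM in control. The 12 epidermis and cuticle rows summed to 141 to 274 TPM in cold and 214 to 517 TPM in control, with 0 called higher, 1 lower and 11 not called. Without 1 CER1 row (TRINITY_DN18898_c0_g1, chosen in the same way) the other 11 summed to 103 to 145 TPM in cold and 111 to 208 TPM in control. The 15 xylem rows summed to 114 to 187 TPM in cold and 136 to 189 TPM in control (1 higher, 3 lower, 11 not called). The 37 green tissue rows summed to 191 to 256 TPM in cold and 238 to 298 TPM in control (7 higher, 2 lower, 28 not called). Without 1 row for the photosystem protein psbB (TRINITY_DN14516_c3_g12, chosen after its values were seen) the other 36 summed to 176 to 246 TPM in cold and 131 to 201 TPM in control. The 2 seed storage rows summed to 47.8 to 101 TPM in cold and 46.5 to 215 TPM in control. The part of these shifts in the cytokinin results was not tested. In bulk RNA, fewer cells of a type and less RNA per cell cannot be told apart.

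The first comparison asked how cold changed these genes over the 3 days together. An AHP1 row and an ARR4 row rose most, and another AHP1 row and an AHK4 row fell most. In all, 5 of 47 rose (2 ARR4, 2 AHP1 and LOG5), 6 fell (AHP1, AHK4, RR26, LOG3, RR22 and RR23) and 36 were not called. A call is a Benjamini-Hochberg adjusted p under 0.05 in limma for the mean of the 3 daily cold minus control differences, in log2(TPM + 1) units, where changes of weakly expressed genes come out too small. The 11 calls make 23.4% of the 47, where 23.3% of all 44600 genes tested were called (11.3% higher and 12.0% lower), so the number of calls does not set these genes apart. The split was 5 higher and 3 lower after quantile normalization, and 5 higher and 4 lower after median ratio scaling. The median difference was -0.31 over the 47 and -0.05 over all genes, with 18 positive and 29 negative. The count of 11 was 4 to 11 when 1 library was left out. Leaving out cold day 4 replicate 1 gave 5, cold day 4 replicate 2 gave 6, cold day 6 replicate 2 gave 4, control day 2 replicate 3 gave 6, control day 4 replicate 1 gave 7, control day 4 replicate 2 gave 4 and control day 6 replicate 2 gave 6. The share of all genes called also fell in those fits, to between 12.5% and 18.5%. Both cold libraries numbered 3 (days 2 and 6) were also left out together. The calls of ARR4 TRINITY_DN22111_c0_g1, AHP1 TRINITY_DN26749_c1_g2, LOG5, LOG3, RR22 and RR23 were then lost. Other members, not called with all libraries, were called lower in that fit.

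**Figure D1:**
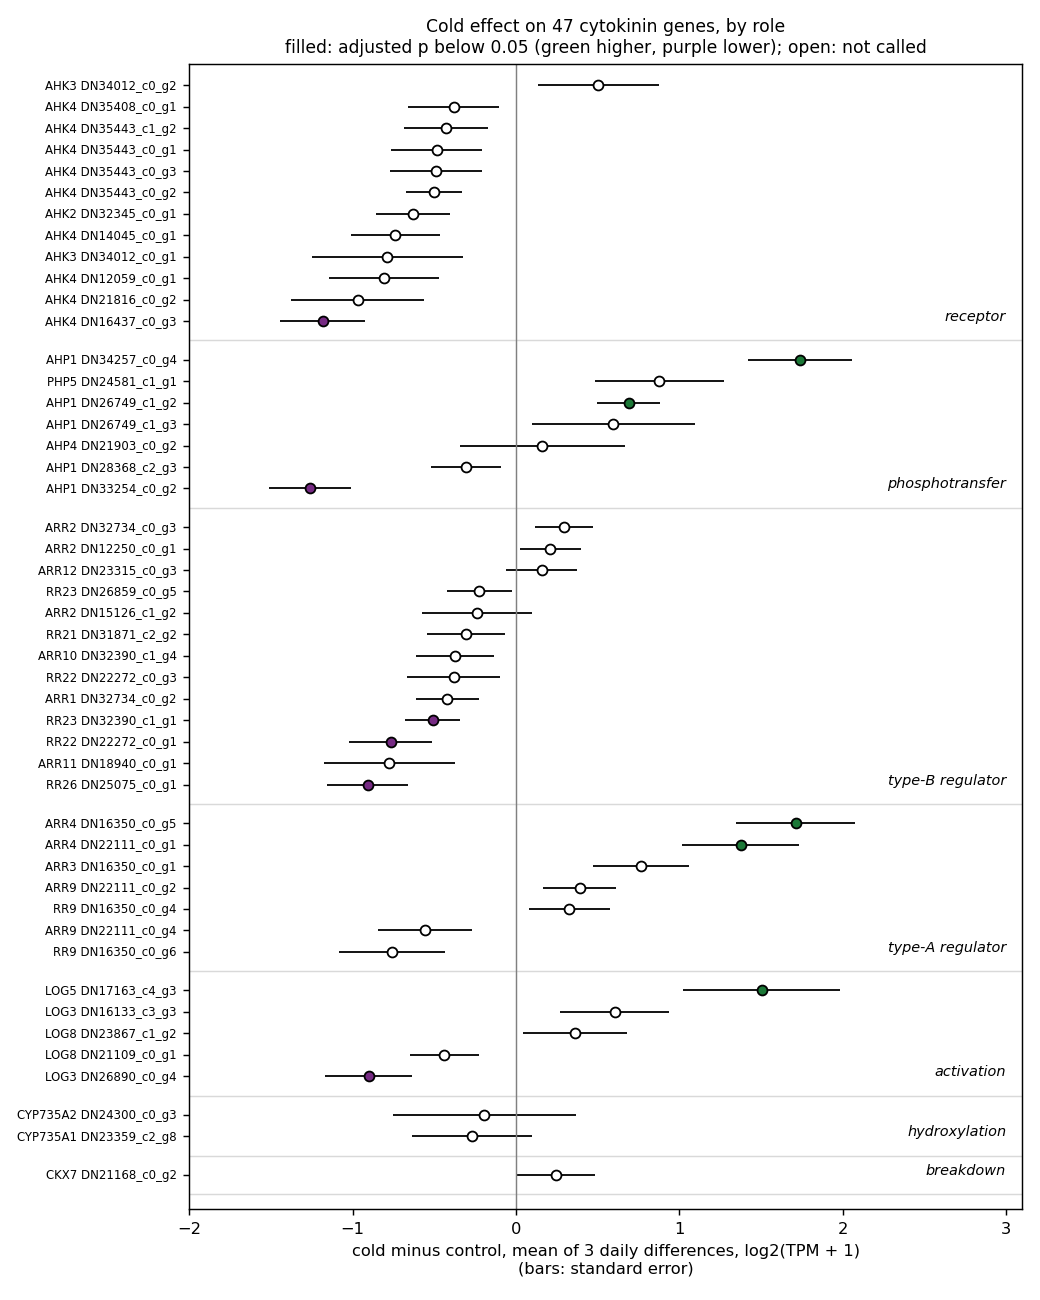
Cold minus control difference of each of the 47 genes, as the mean of 3 daily differences in log2(TPM + 1), with its standard error as a bar, grouped by role. Filled points are the 5 genes called higher and the 6 called lower, and 11 of the 12 receptors lie left of 0.

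Of 12 receptor rows, 0 rose, 1 fell and 11 were not called, where 12.0% of all genes were called lower. Their median difference was -0.57, and 11 of the 12 values were negative. The member that fell was AHK4 TRINITY_DN16437_c0_g3, a row of 1092 bases whose first listed protein domain is CHASE, the hormone-binding part. It had 4.43 and 9.63 TPM in cold at day 2, 2.56 and 2.97 TPM at day 4, and 4.19 and 9.44 TPM at day 6. Control calli had 25.9 and 18.4 TPM at day 2, 7.51 and 8.41 TPM at day 4, and 14.1 and 8.63 TPM at day 6. Cold was below control at days 2 and 4 without overlap, while at day 6 the higher cold library lay above the lower control library. The mean difference was -1.18 (SE 0.26; Benjamini-Hochberg adjusted p = 0.00977 by limma), and the call held in each of the 12 fits without 1 library.

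AHK4, the receptor known in Arabidopsis for root and vascular development, accounted for 9 of the 12 receptor rows. All 9 had a negative mean difference, between -1.18 and -0.38 (median -0.50). These rows are not independent of each other. They are 396 to 1754 bases long, against 5217 bases for AHK2 and 5067 bases for the longer AHK3 row. Their first listed domains are CHASE in 4 rows and other parts of a hybrid kinase in the rest, and 3 rows belong to assembly cluster DN35443_c0. Summed to 1 value, the 9 rows gave -0.66 (SE 0.23; Benjamini-Hochberg adjusted p = 0.0596 by limma). Which libraries were high was shared too. The highest control value was in day 2 replicate 1 for 7 of the 9 rows and in day 2 replicate 3 for the other 2, and the highest cold value was in day 2 or day 6 replicate 3 for all 9. The lowest cold value was in a day 4 library for 8 of the 9. Over all genes tested, cold day 2 replicate 3 held the highest cold value in 30.3% and cold day 6 replicate 3 in 16.7%. Control day 2 replicates 1 and 3 held the highest control value in 19.1% and 15.2%.

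The most abundant receptor row, AHK4 TRINITY_DN35443_c1_g2, averaged 27.7 ± 12.5 TPM in cold and 39.1 ± 21.2 TPM in control (SD, n = 6 each). It was not called (-0.43, SE 0.26; Benjamini-Hochberg adjusted p = 0.242 by limma). Cold values had a lowest of 16.3, a median of 22.1 and a highest of 43.7 TPM, and control values a lowest of 17.8, a median of 34.2 and a highest of 74.8 TPM, so the groups overlapped widely. The AHK2 row, chosen for mention after its values were seen, averaged 5.20 ± 2.33 TPM in cold and 8.22 ± 2.15 TPM in control (SD, n = 6 each). Its difference of -0.63 (SE 0.23) had a Benjamini-Hochberg adjusted p of 0.0631 in limma. The longer AHK3 row (TRINITY_DN34012_c0_g1), also chosen after its values were seen, varied widely in control, with a lowest of 8.68, a median of 21.1 and a highest of 61.8 TPM. In cold it lay between 9.08 and 15.96 TPM. Control libraries at 61.8, 42.6 and 30.9 TPM were day 2 replicate 3, day 6 replicate 2 and day 4 replicate 2, and the other 3 were at 8.68 to 11.2 TPM. The short AHK3 row of 266 bases was the only receptor with a positive difference (0.50, SE 0.37, not called).

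**Figure D2:**
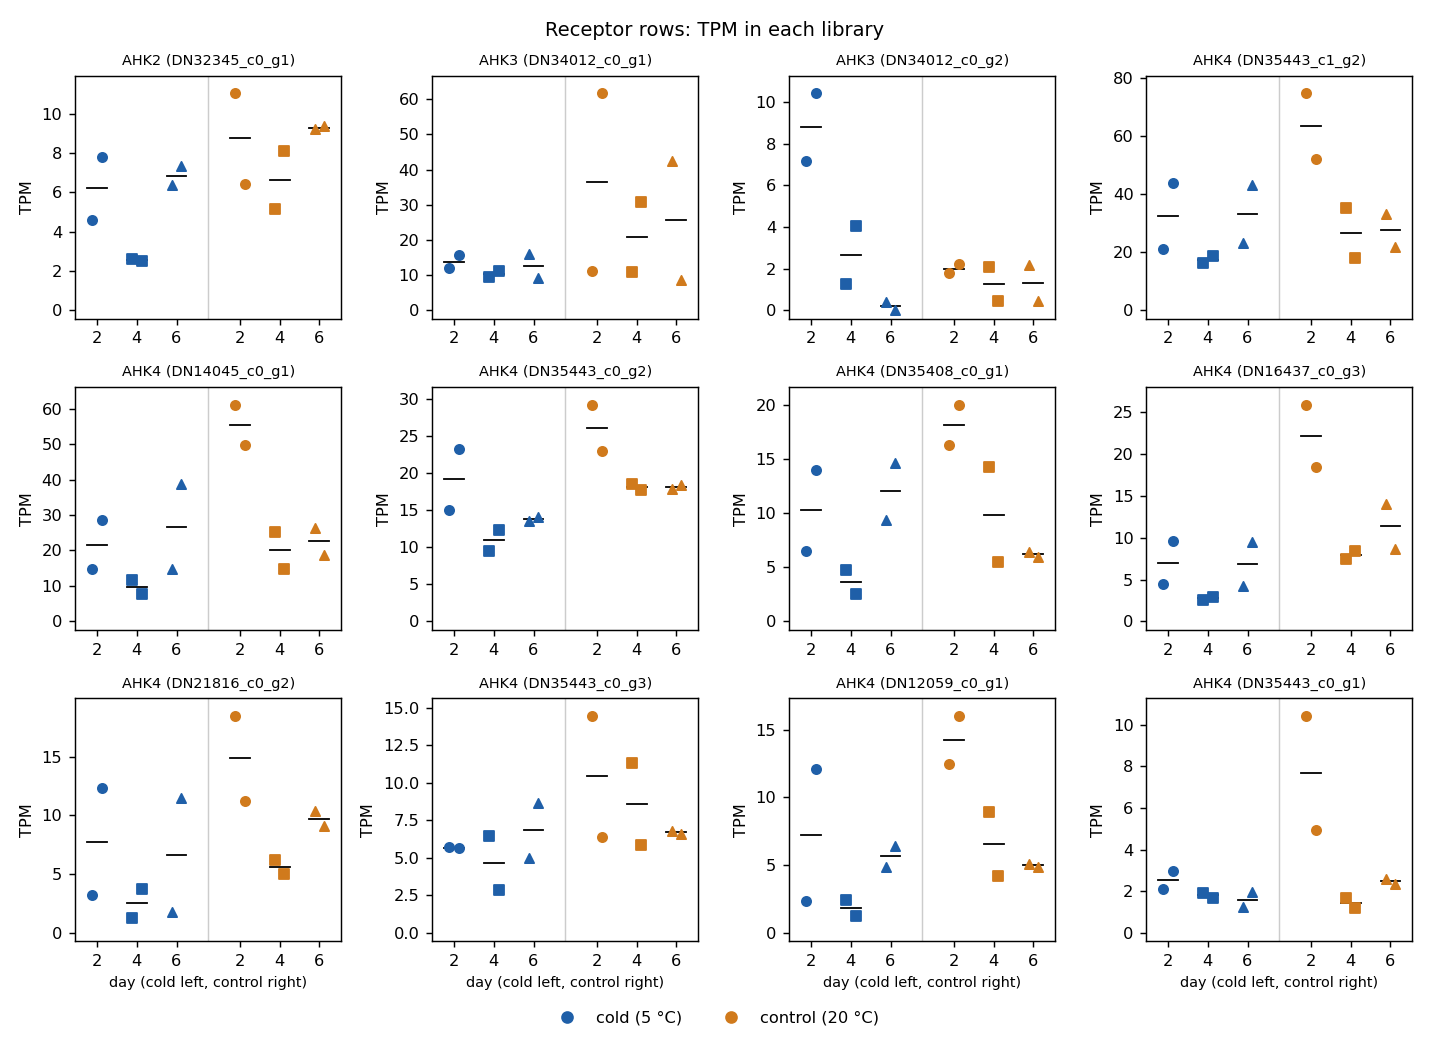
TPM of the 12 receptor rows in each library, with days 2, 4 and 6 on the x axis, cold on the left and control on the right of each panel, and a line at the mean of each pair. In each AHK4 panel the highest control point is at day 2, up to 74.8 TPM, and in 8 of the 9 the lowest cold point is at day 4.

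Phosphotransfer proteins split in both directions. Of 7 rows, 2 rose, 1 fell and 4 were not called, with a median of 0.60. Over all genes, 11.3% were called higher and 12.0% lower. The strongest rise was AHP1 TRINITY_DN34257_c0_g4, which encodes a carrier of the phosphate between receptor and regulator. It had 23.0 and 34.3 TPM in cold at day 2, 30.04 and 40.8 TPM at day 4, and 47.3 and 21.5 TPM at day 6. Control calli had 26.5 and 7.32 TPM at day 2, 5.94 and 4.66 TPM at day 4, and 6.34 and 12.2 TPM at day 6. Cold lay above control at each day except for control day 2 replicate 1, which fell between both cold libraries of that day. The mean difference was 1.74 (SE 0.32; Benjamini-Hochberg adjusted p = 0.00465 by limma). It was 2.02 without control day 2 replicate 1, a library chosen for mention after its values were seen. Over the 12 fits without 1 library it ran from 1.45 to 2.02.

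A second AHP1 row, TRINITY_DN26749_c1_g2, was the most abundant phosphotransfer gene and rose by a smaller step. It averaged 57.4 ± 10.6 TPM in cold and 36.0 ± 10.2 TPM in control (SD, n = 6 each), a mean difference of 0.69 (SE 0.19; Benjamini-Hochberg adjusted p = 0.0252 by limma). The lowest cold value was 46.95 TPM and the highest control value 48.7 TPM, so the groups met at the edge. Its call was lost without cold day 4 replicate 1, cold day 4 replicate 2, cold day 6 replicate 2, control day 2 replicate 3, control day 4 replicate 2 or control day 6 replicate 2 (Benjamini-Hochberg adjusted p by limma up to 0.0717).

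The phosphotransfer row that fell was AHP1 TRINITY_DN33254_c0_g2. It averaged 9.62 ± 4.52 TPM in cold and 24.2 ± 10.04 TPM in control (SD, n = 6 each), a mean difference of -1.26 (SE 0.25; Benjamini-Hochberg adjusted p = 0.00679 by limma). At 5459 bases this row is the longest of the 47. Its first listed domain is a nucleoside hydrolase and not the Hpt domain of the other 6 phosphotransfer rows, so which protein its value follows is uncertain. The other 4 rows were AHP1 at 0.60 and -0.31, AHP4 at 0.16 and PHP5 at 0.88. PHP5 is the name of a rice pseudo-phosphotransfer protein, a kind that lacks the phosphate-accepting histidine. The row is also annotated as histidine-containing phosphotransfer protein 4, and whether it lacks that histidine is unknown. When rows with the same hit were summed, AHP1 as a whole stood at 0.44 (SE 0.15; Benjamini-Hochberg adjusted p = 0.0528 by limma), which ended the calls of all 3 rows and turned the sign of TRINITY_DN33254_c0_g2.

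Type-B regulators fell or were not called. Of 13 rows, 0 rose, 3 fell and 10 were not called, where 12.0% of all genes were called lower. Of the 13 differences 10 were negative, with a median of -0.37. RR26 (TRINITY_DN25075_c0_g1), named for the rice type-B regulator ORR26, was the most abundant of the class. It had 37.6 and 28.7 TPM in cold at day 2, 14.3 and 19.5 TPM at day 4, and 11.6 and 31.3 TPM at day 6. Control calli had 41.8 and 72.0 TPM at day 2, 42.7 and 49.6 TPM at day 4, and 32.9 and 26.4 TPM at day 6. The groups were apart at days 2 and 4 and overlapped at day 6. The mean difference was -0.91 (SE 0.25; Benjamini-Hochberg adjusted p = 0.0233 by limma). Its call was lost without cold day 2 replicate 3, cold day 4 replicate 1, cold day 6 replicate 2, control day 2 replicate 3, control day 4 replicate 2 or control day 6 replicate 2 (Benjamini-Hochberg adjusted p by limma up to 0.0655).

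The other type-B calls stood close to the threshold. RR22 (TRINITY_DN22272_c0_g1) averaged 5.18 ± 1.79 TPM in cold and 9.45 ± 2.65 TPM in control (SD, n = 6 each), a difference of -0.77 (SE 0.25; Benjamini-Hochberg adjusted p = 0.0496 by limma). Its call held only without cold day 2 replicate 1 or without control day 2 replicate 1, and the adjusted p reached 0.127 without cold day 4 replicate 2 (limma, Benjamini-Hochberg). RR23 (TRINITY_DN32390_c1_g1) averaged 10.4 ± 3.72 TPM in cold and 14.6 ± 2.52 TPM in control (SD, n = 6 each), a difference of -0.51 (SE 0.17; Benjamini-Hochberg adjusted p = 0.0486 by limma). Its call was lost in each of the 12 fits without 1 library, with adjusted p up to 0.119 (limma, Benjamini-Hochberg). Over 13 other settings RR22 kept its call in 4 and RR23 in 3, and both lost it after either scaling between libraries. With a pseudocount of 5 in place of 1 the RR22 difference was -0.50 and still called. The hits named for Arabidopsis type-B regulators, ARR1, ARR2, ARR10, ARR11 and ARR12, gave 7 rows, and none was called for the mean of the days. Their differences ran from -0.78 for ARR11 to 0.29 for an ARR2 row. Arabidopsis and rice names only follow the species of the best hit. The called RR23 row is also annotated as ARR12-like and shares assembly cluster DN32390_c1 with the ARR10 row.

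**Figure D3:**
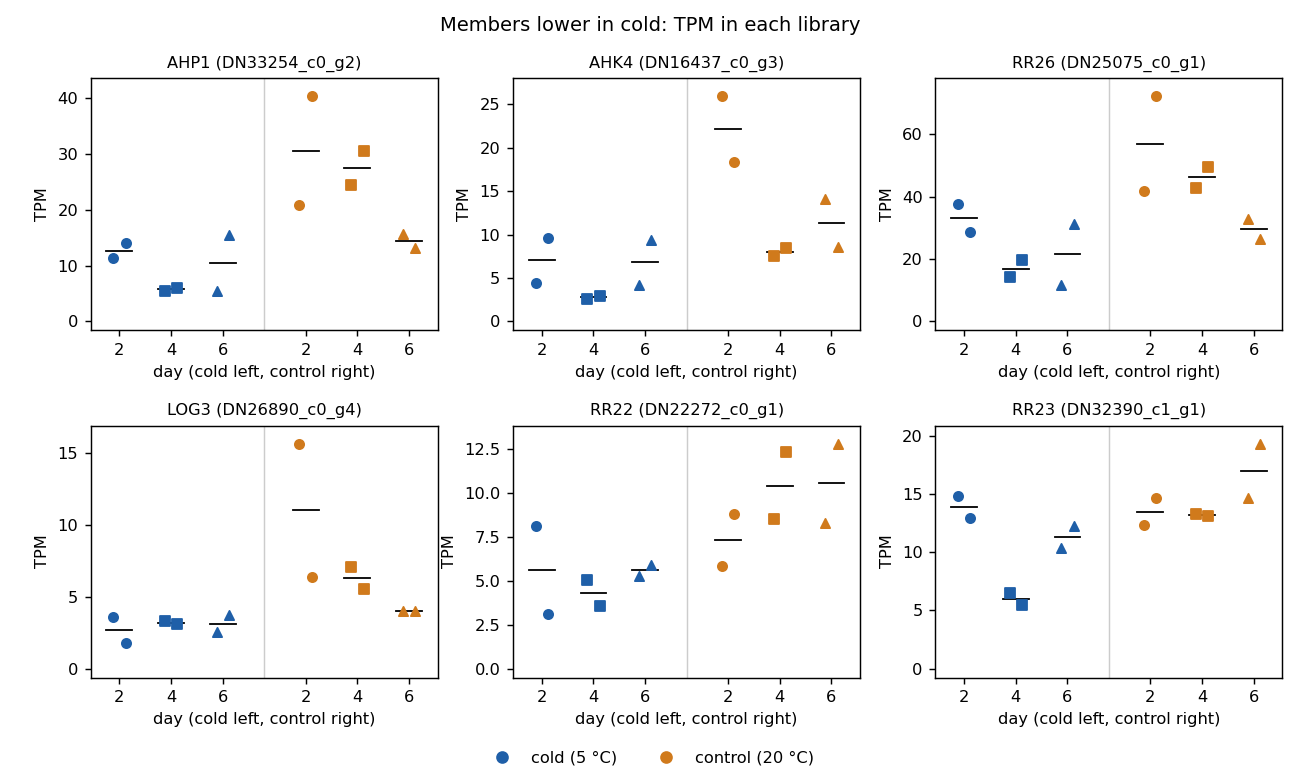
TPM in each library of the 6 genes called lower in cold, with days 2, 4 and 6 on the x axis, cold left and control right, and a line at the mean of each pair. LOG3 is the 1 gene whose 6 cold values, at most 3.70 TPM, all lie below its 6 control values, at least 3.98 TPM.

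Type-A regulators held 2 of the 5 rises, both of them ARR4 rows. ARR4 is known in Arabidopsis as a primary cytokinin response gene and as a partner of phytochrome B. Of the 7 type-A rows, 2 rose, 0 fell and 5 were not called, where 11.3% of all genes were called higher. Their median was 0.39. ARR4 TRINITY_DN16350_c0_g5 had 42.8 and 36.0 TPM in cold at day 2, 39.2 and 32.8 TPM at day 4, and 23.3 and 17.4 TPM at day 6. Control calli had 38.1 and 6.84 TPM at day 2, 9.22 and 3.1 TPM at day 4, and 6.24 and 7.62 TPM at day 6. Each cold library was above 5 of the 6 control libraries, and control day 2 replicate 1 was in the range of the cold ones. The mean difference was 1.71 (SE 0.36; Benjamini-Hochberg adjusted p = 0.00845 by limma), and it was called in each of the 12 fits without 1 library.

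The second ARR4 row, TRINITY_DN22111_c0_g1, followed the same layout of libraries. It had 56.1 and 35.3 TPM in cold at day 2, 48.6 and 34.5 TPM at day 4, and 27.6 and 30.4 TPM at day 6. Control calli had 58.1 and 8.86 TPM at day 2, 10.4 and 7.95 TPM at day 4, and 12.1 and 12.9 TPM at day 6. Again control day 2 replicate 1 was alone at the level of cold, here above all 6 cold libraries. The mean difference was 1.37 (SE 0.36; Benjamini-Hochberg adjusted p = 0.0201 by limma). The adjusted p lay between 0.0525 and 0.0568 without cold day 2 replicate 1, cold day 4 replicate 1, cold day 6 replicate 2 or control day 4 replicate 2 (limma, Benjamini-Hochberg). Without control day 2 replicate 1, chosen for mention after its values were seen, the differences were 1.80 for this row and 2.10 for the other ARR4 row. These were the largest values of the 12 fits without 1 library, and the smallest were 0.94 and 1.32. Control day 2 replicate 1 was the highest control in 19.1% of all tested genes and in 21.2% of the genes called higher. Summed, both ARR4 rows gave 1.56 (SE 0.35; Benjamini-Hochberg adjusted p = 0.0117 by limma).

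All 7 type-A rows belong to 2 assembly clusters, each with an ARR4 row and with rows that had other values. In cluster DN16350_c0, beside ARR4, the ARR3 row stood at 0.76 (SE 0.30; Benjamini-Hochberg adjusted p = 0.0823 by limma) and the RR9 rows at 0.33 and -0.76. In cluster DN22111_c0 the ARR9 rows stood at 0.39 and -0.56. Neither ARR9 nor RR9 (rice ORR9), further type-A regulators, was called. The ARR9 row TRINITY_DN22111_c0_g4, chosen for mention after its values were seen, averaged 22.2 ± 9.32 TPM in cold and 32.9 ± 11.5 TPM in control (SD, n = 6 each), which overlapped. Reads shared between rows of a cluster could be split between them in counting, which leaves the separate values uncertain.

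**Figure D4:**
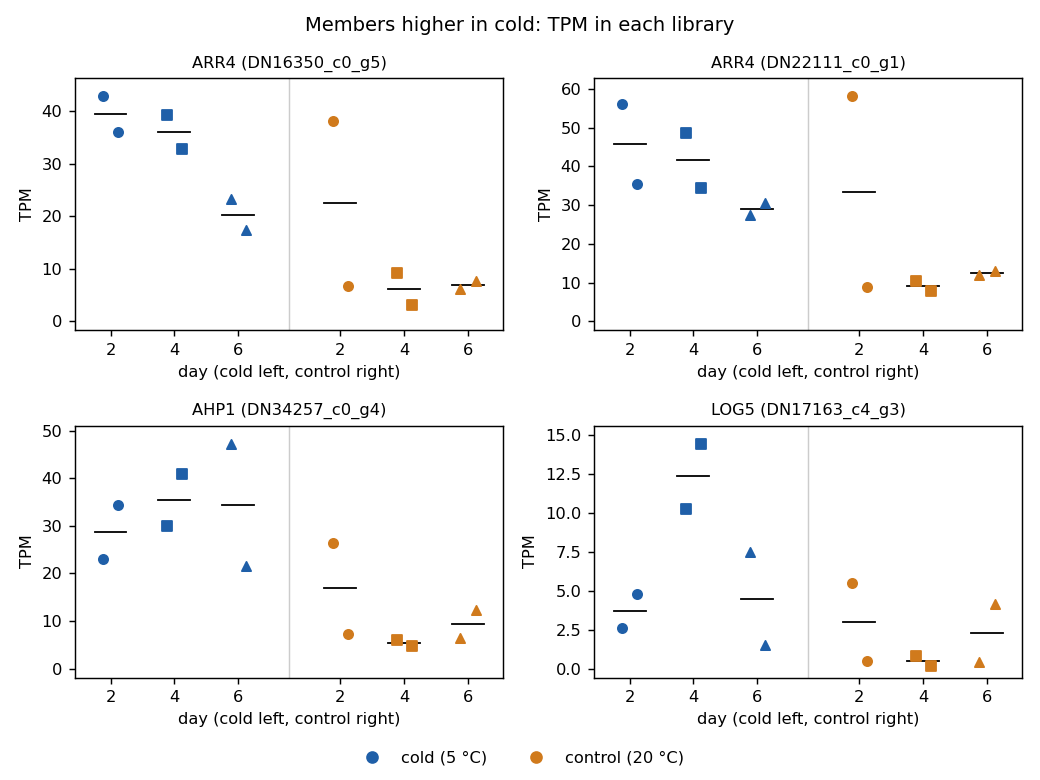
TPM in each library of 4 genes called higher in cold, ARR4 (2 rows), AHP1 and LOG5, with days 2, 4 and 6 on the x axis, cold left and control right, and a line at the mean of each pair. The control day 2 point that lies at the level of cold in each panel (38.1, 58.1, 26.5 and 5.46 TPM) is replicate 1.

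Among the enzymes of cytokinin turnover, 1 of 5 LOG genes rose and another fell, where 11.3% of all genes were called higher and 12.0% lower. The hydroxylases and the dehydrogenase were not called. LOG5 (TRINITY_DN17163_c4_g3) had 2.59 and 4.80 TPM in cold at day 2, 10.2 and 14.4 TPM at day 4, and 7.46 and 1.52 TPM at day 6. Control calli had 5.46 and 0.46 TPM at day 2, 0.80 and 0.18 TPM at day 4, and 0.44 and 4.15 TPM at day 6. Only at day 4 were the groups apart. The mean difference was 1.502 (SE 0.48; Benjamini-Hochberg adjusted p = 0.0436 by limma). It was 0.73 with a pseudocount of 5 and 2.07 with one of 0.25, called in both. Its call was held without cold day 6 replicate 3, control day 2 replicate 1 or control day 6 replicate 3 and lost without any of the other 9 libraries, with adjusted p up to 0.132 without cold day 6 replicate 2 (limma, Benjamini-Hochberg), and it was lost in a fit with no variance trend.

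LOG3 (TRINITY_DN26890_c0_g4) was the only member whose 6 cold and 6 control libraries did not overlap. Over all genes tested, cold lay wholly below control in 3.84% and wholly above in 3.27%. LOG3 averaged 3.003 ± 0.712 TPM in cold and 7.10 ± 4.36 TPM in control (SD, n = 6 each), a difference of -0.90 (SE 0.27; Benjamini-Hochberg adjusted p = 0.0327 by limma). The gap was widest at day 2, with 3.56 and 1.80 TPM in cold and 15.6 and 6.36 TPM in control, and narrow at day 6, with 2.56 and 3.70 TPM in cold and 4.02 and 3.98 TPM in control. Its call was held without cold day 2 replicate 1, cold day 6 replicate 3 or control day 2 replicate 3 and lost without any of the other 9, with adjusted p up to 0.0886 without cold day 6 replicate 2 (limma, Benjamini-Hochberg), and it was lost after quantile normalization. With a pseudocount of 5 the difference was -0.54 and called. The other LOG3 row stood at 0.60 (SE 0.33, not called), and the sum of both rows at -0.25 (SE 0.24; Benjamini-Hochberg adjusted p = 0.486 by limma).

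The most abundant of all 47 genes was LOG8 (TRINITY_DN21109_c0_g1), with 78.5 ± 20.9 TPM in cold and 107 ± 27.4 TPM in control (SD, n = 6 each). Its difference of -0.44 (SE 0.21) was not called (Benjamini-Hochberg adjusted p = 0.147 by limma). CYP735A2 (TRINITY_DN24300_c0_g3) averaged 6.25 ± 2.85 TPM in cold and 8.95 ± 7.39 TPM in control (SD, n = 6 each) and had a difference of -0.19 (SE 0.56; Benjamini-Hochberg adjusted p = 0.823 by limma). It was uneven in both groups, with a low value in day 6 replicate 2 of each temperature (0.72 TPM in cold and 0.34 TPM in control) and 22.0 TPM in control day 2 replicate 1. CKX7 (TRINITY_DN21168_c0_g2), a cytokinin dehydrogenase known in Arabidopsis as the cytosolic form, averaged 11.3 ± 3.45 TPM in cold and 9.49 ± 3.31 TPM in control (SD, n = 6 each). Its difference was 0.24 (SE 0.24; Benjamini-Hochberg adjusted p = 0.47 by limma), and the ranges overlapped almost completely.

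Taken by day, member calls were made only at day 4. There 3 of 47 were higher in cold and 2 lower, 10.6% of the members against 8.38% of all genes tested (4.07% higher, 4.30% lower). The higher ones were LOG5 (3.17, SE 0.83), AHP1 TRINITY_DN34257_c0_g4 (2.52, SE 0.55) and ARR4 TRINITY_DN16350_c0_g5 (2.51, SE 0.63), with Benjamini-Hochberg adjusted p of 0.0412, 0.0233 and 0.0352 in limma. The lower ones were AHP1 TRINITY_DN33254_c0_g2 (-2.07, SE 0.44; Benjamini-Hochberg adjusted p = 0.0212 by limma) and the type-B gene ARR1. All 5 calls were lost when any of the 4 day 4 libraries was left out, in fits that called at most 0.342% of all genes.

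ARR1 (TRINITY_DN32734_c0_g2) was called at day 4 and not for the mean of the days. At day 4 it had 14.6 and 7.08 TPM in cold and 27.0 and 28.6 TPM in control, a difference of -1.36 (SE 0.33; Benjamini-Hochberg adjusted p = 0.0333 by limma). At day 2 it had 31.4 and 23.6 TPM in cold and 19.3 and 22.1 TPM in control, and at day 6 27.4 and 31.1 TPM in cold and 32.6 and 39.4 TPM in control. Both day 4 cold values were thus below all other values of this gene. The test that its 3 daily differences are equal gave an unadjusted p of 0.0105 and a Benjamini-Hochberg adjusted p of 0.397 in limma, so a difference between days did not pass.

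At day 2, 0 of 47 were called in limma (9 at an unadjusted p under 0.05), where 1.76% of all genes were called (1.48% higher). The day 2 difference of ARR4 row TRINITY_DN22111_c0_g1 was 0.92. It was 2.21 without control day 2 replicate 1, a library chosen for mention after its values were seen. At day 6, 0 of 47 were called (5 at an unadjusted p under 0.05), where 0.484% of all genes were called. Median differences of the 47 were -0.21 at day 2, -0.58 at day 4 and 0.03 at day 6. Over all genes they were 0.00, -0.16 and -0.03, and the shift at day 4 became -0.04 after quantile normalization and -0.03 after median ratio scaling, with the same 5 members called in both. Type-B rows had a median of 0.04 at day 2, -0.96 at day 4 and -0.29 at day 6. The 9 AHK4 rows had medians of -1.05, -0.95 and -0.02 at days 2, 4 and 6. The cold effect differed between days in 0 of 47 (5 at an unadjusted p under 0.05; 0.0157% of all genes in limma). A change over days within cold was called in 0 of 47 (8 at an unadjusted p under 0.05; 0.601% of all genes), and within control in 0 of 47 (5 at an unadjusted p under 0.05; 0% of all genes). The lowest Benjamini-Hochberg adjusted p in limma was 0.0906 in cold, for ARR1, and 1 in control.

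**Figure D5:**
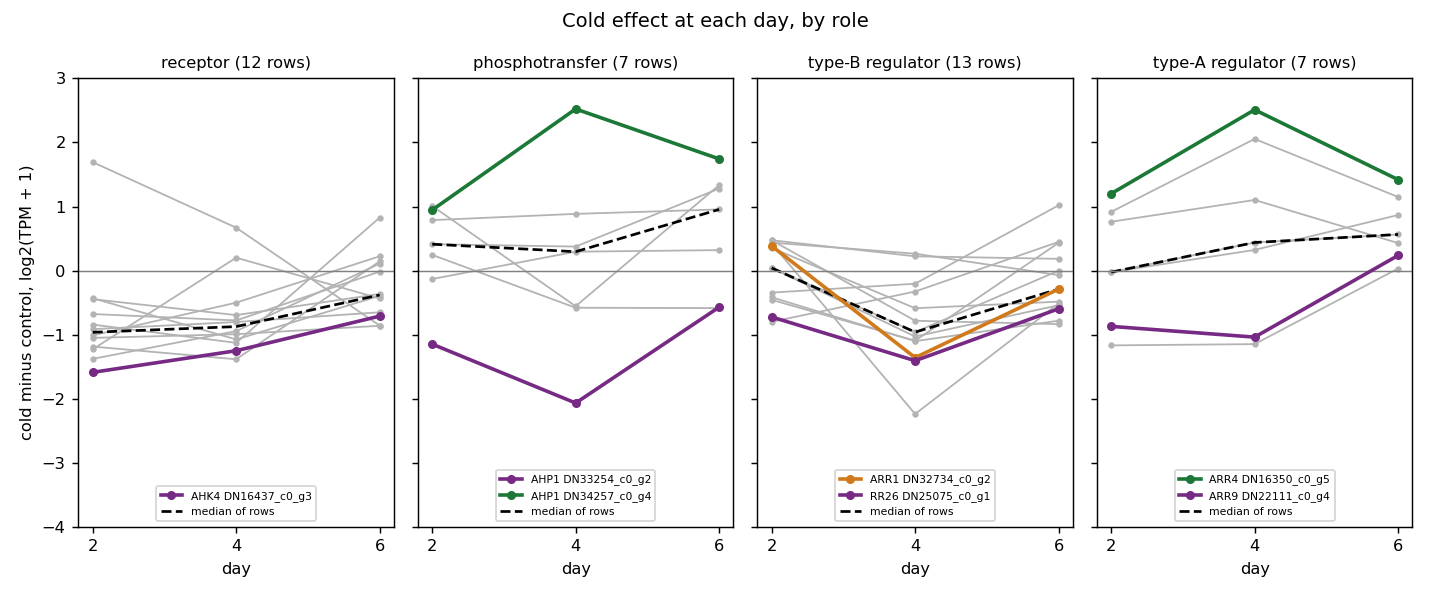
Cold minus control difference at days 2, 4 and 6 (x axis) in log2(TPM + 1) for the receptor, phosphotransfer, type-B and type-A rows, with the median as a dashed line and coloured lines for genes named in the text. AHP1 TRINITY_DN34257_c0_g4 and ARR4 TRINITY_DN16350_c0_g5 peak at 2.52 and 2.51 on day 4, and the type-B median is lowest there at -0.96.

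Cytokinin genes outside the rule were taken from a list of 42 rows for transport, conjugation, salvage and downstream response. Of these 3 rose, 7 fell and 32 were not called for the mean of the days, with a median of -0.41. Over all genes tested, 11.3% were called higher and 12.0% lower. Single families of the list have too few rows to be set against those shares. Adenylate isopentenyltransferase, the first enzyme of hormone synthesis, was among the words searched and gave no row. Among 7 rows of zeatin O-glycosyltransferases, which store cytokinin as sugar conjugates, 2 rose and 5 were not called. ZOX1 (TRINITY_DN20645_c1_g5) averaged 14.2 ± 9.23 TPM in cold and 2.41 ± 3.004 TPM in control (SD, n = 6 each), a difference of 2.22 (SE 0.41; Benjamini-Hochberg adjusted p = 0.00463 by limma). ZOG1 (TRINITY_DN23019_c1_g1) averaged 15.9 ± 12.4 TPM in cold and 3.05 ± 3.36 TPM in control (SD, n = 6 each), a difference of 2.01 (SE 0.42; Benjamini-Hochberg adjusted p = 0.00797 by limma). In cold both had their lowest pair at day 2 (4.28 and 4.90 TPM for ZOX1, 4.22 and 4.14 TPM for ZOG1) and their highest at day 6 (28.8 and 17.4 TPM for ZOX1, 33.0 and 28.6 TPM for ZOG1). Their highest control values, 8.41 and 9.52 TPM, were again in control day 2 replicate 1. With a pseudocount of 5 the differences were 1.30 for ZOX1 and 1.24 for ZOG1, both called. Both calls were lost when rows of the same hit were summed, with values of -0.30 and 0.55 (Benjamini-Hochberg adjusted p = 0.265 and 0.132 by limma).

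On the falling side, where 12.0% of all genes were called, were 3 of 7 rows of the D3 cyclins. In Arabidopsis these drive cell division in response to cytokinin. CYCD3-1 (TRINITY_DN23622_c1_g1) averaged 6.09 ± 1.69 TPM in cold and 22.5 ± 15.5 TPM in control (SD, n = 6 each), a difference of -1.54 (SE 0.37; Benjamini-Hochberg adjusted p = 0.0143 by limma). Cold values lay between 4.59 and 8.73 TPM, and the lowest control library, day 2 replicate 1 at 8.06 TPM, lay within that range. Its call was lost when both cold libraries numbered 3 were left out. APT2 (TRINITY_DN30013_c1_g1), an adenine phosphoribosyltransferase, a family that returns cytokinin bases to nucleotides, averaged 13.2 ± 9.87 TPM in cold and 36.4 ± 29.7 TPM in control (SD, n = 6 each). Its difference was -1.35 (SE 0.42; Benjamini-Hochberg adjusted p = 0.0385 by limma). Its call was held without cold day 2 replicate 3, cold day 6 replicate 3, control day 2 replicate 3 or control day 6 replicate 2 and lost without any of the other 8 libraries, with adjusted p up to 0.114 without cold day 6 replicate 2 (limma, Benjamini-Hochberg), and it was lost in a fit with no variance trend. The remaining called rows were 2 falls and 1 rise among 8 equilibrative nucleoside transporters and 1 fall among 7 purine permeases, both families that can carry cytokinins. The 4 cytokinin response factors (CRF), 2 ABCG14 transporter rows, 2 adenosine kinases and 2 IPT9 rows, whose product modifies tRNA, were not called for the mean of the days.

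The CRF row CRF5 TRINITY_DN31060_c0_g4, chosen for mention after its values were seen, did pass the test of change over days within cold. CRF proteins are transcription factors that act downstream of cytokinin in Arabidopsis. The other CRF5 row, TRINITY_DN16081_c0_g1, did not pass that test (Benjamini-Hochberg adjusted p = 0.266 by limma). Its daily differences were -0.86, -2.34 and 0.31 (SE 0.74 each), none of them called. Row TRINITY_DN31060_c0_g4 had 18.02 and 30.1 TPM in cold at day 2, 1.51 and 2.87 TPM at day 4, and 0.41 and 0.36 TPM at day 6. Control calli had 3.65 and 7.69 TPM at day 2, 5.48 and 5.15 TPM at day 4, and 8.95 and 3.71 TPM at day 6. Cold was thus above both controls at day 2 and below both at days 4 and 6. Change over days had a Benjamini-Hochberg adjusted p of 0.0183 in cold and 1 in control by limma, where 0.601% of all genes were called in cold. The daily differences of 1.94, -1.02 and -2.31 (SE 0.50 each) were not called, and the test that they are equal gave a Benjamini-Hochberg adjusted p of 0.145 by limma. The call in cold was held without cold day 6 replicate 2 or any 1 control library and lost without any of the other 5 cold libraries, with adjusted p up to 0.107 without cold day 2 replicate 3 (limma, Benjamini-Hochberg).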

How the data were processed

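RNA abundance in 12 callus libraries came as TPM for each assembled gene, in a single file that the authors deposited. The unit was read from the values. Cutadapt, FastQC, Salmon and edgeR appear in the submitters' processing notes, with roles and versions not given in the sources used here. Every row reaches at least 6.01 TPM in some library, so rarer transcripts were not analysed here. No read counts are held, so precision from depth is unknown. Symbols are best Swiss-Prot hits, and no sequences were used.

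A pseudocount of 1 was added before the log2. The filter asked for 1 TPM or more in 2 or more libraries, which left 44600 of 44953 genes (353 dropped). These were fitted with limma 3.58.1 in R 4.3.3 to the 6 groups with a variance trend, leaving 6 residual degrees of freedom. Contrasts were cold against control at each day and as the mean of the 3 daily differences, with F tests of the interaction and of change over days within a temperature. P-values were Benjamini-Hochberg adjusted over all genes, with 0.05 as the threshold. The script was tested on simulated data first. There, with far fewer changed genes than were called here, 77% of 4-fold and 22% of 2-fold changes were called for the mean of the days. At days 2, 4 and 6 the shares were 25%, 1% and 0% of 4-fold changes. Of 2-fold changes 0% were called at each day. Values and figures were handled with the packages data.table (version 1.17.8), pandas (2.3.3) and matplotlib (3.10.9).

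The members, lists and tests were chosen with earlier results of these data known. Named were both ARR4 rows, up to 4 largest called rises and falls per role, the most abundant member per role, up to 3 called members per day or F test, and up to 2 called rises and falls of the list outside the rule. Markers of embryogenic callus, xylem, epidermis, seed storage and green tissue came from fixed words. Alternatives changed the pseudocount, filter, scaling, variance trend, library weights, replicate block, summing by Swiss-Prot hit, fold threshold and libraries used.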

Additional observations from a re-analysis of the deposited data

Results flagged for a closer look

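In 3 of 94 groups of 6 libraries (47 genes at 2 temperatures), 1 library stood far from the other 5 on the log2(TPM + 1) scale. Its gap to the nearest library, as a share of the group's range, was above Dixon's 95% value. Chance flags about 1 in 20 such groups, so this number is below what chance gives on that scale. ARR4 TRINITY_DN22111_c0_g1 was at 58.06 TPM in control day 2 replicate 1, and the other 5 control libraries were at 7.95 to 12.9 TPM. CYP735A2 was at 0.72 TPM in cold day 6 replicate 2, and the other 5 cold libraries were at 5.96 to 8.24 TPM. ARR11 TRINITY_DN18940_c0_g1, a type-B regulator, was at 7.62 TPM in cold day 2 replicate 3, and the other 5 cold libraries were at 0.19 to 0.90 TPM. On the TPM scale, tried after the data were seen, 11 of the 94 groups had such a library, with these 3 among them, which is above that rate. The others included ARR4 TRINITY_DN16350_c0_g5 (38.1 TPM) and LOG3 TRINITY_DN26890_c0_g4 (15.6 TPM), both in control day 2 replicate 1.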

How the results depend on the processing

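The 11 calls for the mean of the days became 3 of 25 values when rows were summed by Swiss-Prot hit, and 6 when a change of at least 2-fold was also asked for (14.3% of all genes). They numbered 4 to 11 without 1 library. The 5 calls at day 4 became 2 without a variance trend, 2 with a replicate block within day, 2 in a fit of that day's libraries alone, 3 when summed by hit and 13 with library weights, and 0 to 6 without 1 library. Those at day 2 numbered 0 to 1 without 1 library. For the other comparisons the count stayed at 0 under every alternative run. The replicate number as a block gave 8 calls for the mean and 4 at day 4, and the block within day 8 and 2. LOG5, RR22 and RR23 lost their calls under both. Deviations of same-numbered cold and control libraries had correlations of -0.188 at day 2, 0.00743 at day 4 and -0.0122 at day 6. The labels do not say whether the numbers pair the samples. These values cannot decide it, because paired samples can share little deviation. A block with the day 2 numbers crossed, added after the data were seen, gave 9 and 5 calls. Leaving out cold day 2 replicate 3 and cold day 6 replicate 3 together gave 9 calls for the mean (2 higher, 7 lower) and 5 at day 4 (1 higher, 4 lower). Of 500 values of the named genes under these alternatives, 495 kept their sign. Of all 500, 394 kept sign and side of the threshold, and 101 kept the sign and lost the call. Most named genes were chosen because they were called, so this tally can show few gains. Members not named gained calls in some alternatives and are not in it. Reversed were CYP735A2 (0.21 without cold day 6 replicate 2, 0.19 without control day 2 replicate 1 and 0.27 without control day 6 replicate 3, in a range of -0.66 to 0.27), AHP1 TRINITY_DN33254_c0_g2 (0.44 summed by hit) and ZOX1 TRINITY_DN20645_c1_g5 (-0.30 summed by hit). Summing changes what is tested and a library less leaves fewer samples. For the other changes the cause was not tested. With 2 libraries a group and no read counts, small differences of single days and of genes near 1 TPM cannot be resolved. Large differences of single days can be missed as well. At day 6 the ZOX1 row TRINITY_DN20645_c1_g5 had a difference of 3.29 (SE 0.70) and was not called (Benjamini-Hochberg adjusted p = 0.0641 by limma).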
